A study of Mus musculus with 2 samples.

Results

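The immunoglobulin heavy chain V genes were read here through the receptor sequences that bulk RNA sequencing of liver CD8 T cells had picked up. A clonotype, meaning a nucleotide CDR3 listed with its best V and J hits, was kept when both of those hits were heavy chain (IGH) genes. In all, 218 of 2508 listed clonotypes qualified, and they used 67 IGHV genes of 12 families. The CD8αα list gave 133 of its 940 clonotypes and 508 of its 6133 reads, and the CD8αβ list gave 85 of 1568 clonotypes and 205 of 3215 reads.

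Both libraries came from sorted hepatic T cells of dnTGFβRII (TG) mice on the C57BL/6 strain, labelled 10 weeks of age. One library was made from CD8αα T cells and the other from CD8αβ T cells, so each cell type had 1 library and no replicate. The TG mice of both groups express a dominant-negative form of TGF-β receptor II from the Cd4 promoter, a model of primary biliary cholangitis, and no wild-type library entered the comparison. How many mice were pooled is not given in the sources used here. Every test below therefore compares these 2 libraries and not the cell types, and no difference has a replicate check.

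A heavy chain variable region is assembled in developing B cells by joining one V, one D and one J gene on chromosome 12, with bases trimmed and added at the joints, and the CDR3 spans those joints. The V genes fall into families by sequence. IGHV1 is the largest and lies mostly far from the J genes, whereas IGHV2 and IGHV5 lie next to the D genes. Activated B cells can exchange the IGHM and IGHD constant genes for IGHG, IGHE or IGHA, which is called class switching, and can acquire point mutations in the joined V region. Rearranged heavy chains mark the B cell lineage. The antibodies named in the methods of the study include none to a B cell lineage marker. The gate for this sort is not detailed there, and the lists hold receptor chains only, so Cd8a, Cd8b1 and B cell marker genes were not analysed here.

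The germline ends of the J genes are shown because every CDR3 below ends in one of them. The capitals mark the part that belongs to the CDR3. The genes lie on the minus strand of chromosome 12 between 113428514 and 113429833 (GRCm38), and the sequences are those of the GENCODE transcripts.
IGHJ1: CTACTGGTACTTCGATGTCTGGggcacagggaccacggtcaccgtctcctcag
IGHJ2: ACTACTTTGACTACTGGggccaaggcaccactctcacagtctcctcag
IGHJ3: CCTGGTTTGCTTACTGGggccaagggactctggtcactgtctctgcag
IGHJ4: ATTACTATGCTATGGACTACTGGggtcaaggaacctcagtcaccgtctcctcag
IGHJ1 and IGHJ4 bring 22 and 23 bases to the CDR3 where nothing is trimmed. IGHJ2 and IGHJ3 bring 17 bases each.

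The 5 largest heavy chain clonotypes of the CD8αα library are shown because they carry several of the differences in V gene use. The capitals mark the bases between the V part and the J part. These parts are as aligned in MiXCR, whose V and J references carry a flank beyond the gene. A part can therefore run past the germline end of its gene. The J part of the IGHV1-81-IGHJ2 clonotype, for example, has 19 bases, whereas germline IGHJ2 brings 17.
IGHV14-3-IGHJ2 with IGHM: tgtgctagaGGGgactactgg
IGHV10-1-IGHJ2 with IGHM: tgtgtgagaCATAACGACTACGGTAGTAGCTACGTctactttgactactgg
IGHV7-3-IGHJ1 with IGHA: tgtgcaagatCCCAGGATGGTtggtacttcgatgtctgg
IGHV1-81-IGHJ2 with IGHG2C: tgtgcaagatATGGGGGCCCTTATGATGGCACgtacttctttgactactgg
IGHV3-1-IGHJ4 with IGHG1: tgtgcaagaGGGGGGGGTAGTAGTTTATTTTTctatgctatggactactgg
They held 25, 18, 16, 12 and 12 reads in this order, and none of them was listed in the CD8αβ library. The list held 5 clonotypes with 12 reads, of which the first 2 in list order are shown. Only 3 bases separate the V part from the J part in the first, and no D gene was assigned to it.

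The 5 largest of the CD8αβ library are marked in the same way.
IGHV8-8-IGHJ4 with IGHA: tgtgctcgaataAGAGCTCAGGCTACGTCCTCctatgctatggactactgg
IGHV9-3-IGHJ1 with IGHA: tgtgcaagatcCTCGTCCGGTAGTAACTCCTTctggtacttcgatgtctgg
IGHV5-9-IGHJ3 with IGHG2C: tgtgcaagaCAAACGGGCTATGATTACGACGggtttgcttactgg
IGHV1-53-IGHJ2 with IGHG2B: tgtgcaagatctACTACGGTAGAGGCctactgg
IGHV1-85-IGHJ2 with IGHG1: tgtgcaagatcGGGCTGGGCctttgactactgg
They held 10, 10, 9, 8 and 8 reads. The first of them was also listed in the CD8αα library, with 4 reads, and the other 4 were not. All 5 carried a switched constant gene, whereas 2 of the 5 largest of the CD8αα library carried IGHM.

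Heavy chains took a larger part of the CD8αα list than of the CD8αβ list, more so by clonotypes than by reads. They made up 8.28% of the listed reads of the CD8αα library (95% Wilson interval 7.62 to 8.999) and 6.38% of those of the CD8αβ library (5.58 to 7.27), with p = 0.000887 in Fisher's exact test, two-sided, on reads. By clonotypes the shares were 14.1% (12.1 to 16.5) and 5.42% (4.41 to 6.65), with p = 2.65e-13 in the same exact test. With clonotypes of 1 read left out, the difference in reads fell from 1.91 to 0.93 percentage points and no longer passed (Fisher's exact p = 0.165), whereas the difference in clonotypes still did (Fisher's exact p = 1.10e-05). A share of listed reads or clonotypes also moves with every other chain. The CD8αα list held 337 TCR β-chain and 222 TCR α-chain clonotypes, and the CD8αβ list held 915 and 457. For each TCR β-chain read there were 0.170 heavy chain reads in the CD8αα library and 0.111 in the CD8αβ library, and for each heavy chain read there were 1.63 and 1.15 light chain reads. Fewer B lineage cells and less heavy chain RNA per cell cannot be told apart in bulk samples.

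Most heavy chain clonotypes were seen in very few reads. Of the CD8αα clonotypes, 45 (33.8%) had 1 read and 11 had 10 or more, with a median of 3 and a highest value of 25. Of the CD8αβ clonotypes, 44 (51.8%) had 1 read and 2 reached 10, with a median of 1. The largest clonotype held 4.92% of the heavy chain reads in the CD8αα library (3.36 to 7.16) and 4.88% on the CD8αβ side (2.67 to 8.75), so no single clonotype led either library. A count of 3 reads is 0.591% of the heavy chain reads of the CD8αα library and 1.46% of those of the CD8αβ library, and this was taken as the share that a count of 0 still allows. Without molecular identifiers, reads are not independent molecules, so intervals and floors alike cover only the error of counting.

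**Figure D1:**
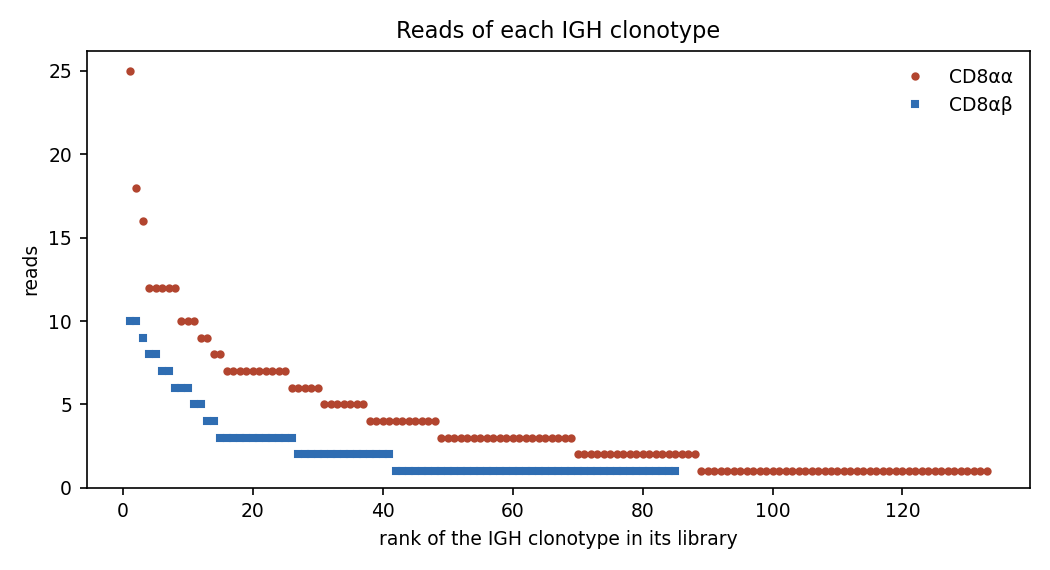
Reads (vertical axis) of each IGH clonotype against its rank within its library (horizontal axis), with the CD8αα library as circles and the CD8αβ library as squares. The CD8αα series starts at 25 reads and runs to rank 133, and the CD8αβ series starts at 10 reads and runs to rank 85, each point being 1 clonotype.

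IGHV1 led in both libraries. It held 264 of 508 heavy chain reads in the CD8αα library (51.97%, 47.6 to 56.3) against 114 of 205 in the CD8αβ library (55.6%, 48.8 to 62.2). By clonotypes it held 81 of 133 (60.9%) and 51 of 85 (60.0%). Neither difference passed the test (Benjamini-Hochberg adjusted Fisher's exact p = 0.514 by reads and 1 by clonotypes), and the families behind IGHV1 each stayed under 12% of the reads. When each clonotype was counted once, none of the 12 IGHV families differed between the libraries at an adjusted p under 0.05, and none did at an unadjusted p under 0.05 either. Over all receptor chains, 1.22% of the 82 V families passed by clonotypes.

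By reads, 6 of the 12 IGHV families passed, beside 46.3% of the 82 V families of all chains. The heavy chain families thus passed about as often as V families in general, and the count says nothing particular about them. IGHV2, IGHV7, IGHV10 and IGHV14 were higher in the CD8αα library, and IGHV5 and IGHV8 were higher in the CD8αβ library. In each of these families a few clonotypes held most of the reads, as the next values show.

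IGHV7 was listed in the CD8αα library alone, with 31 reads (6.10%, 4.33 to 8.53) against 0 of 205, which allows a share of up to 1.46% by the floor of 3 reads and 1.84% by the upper end of the Wilson interval. This makes its share 4.17-fold higher when the floor of 3 reads is set for the CD8αβ library (adjusted Fisher's exact p = 0.000268). Its 4 clonotypes held 16, 7, 7 and 1 reads, under IGHV7-3 and IGHV7-1, and the family still passed without the largest of them (adjusted exact p = 0.0229).

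IGHV5, a family at the D-proximal end of the locus, went the other way. It had 11 reads (2.17%, 1.21 to 3.84) in the CD8αα library against 24 (11.7%, 7.99 to 16.8) in the CD8αβ library (adjusted Fisher's exact p = 4.65e-06). Both libraries had 6 clonotypes of this family. The CD8αα ones held 3 reads or fewer each, and the CD8αβ ones held 9, 6, 6, 1, 1 and 1. The call held without the largest clonotype of each library (adjusted exact p = 0.000867).

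IGHV2, the other D-proximal family, had 36 reads (7.09%, 5.16 to 9.65) in 7 CD8αα clonotypes and 4 reads (1.95%, 0.761 to 4.91) in 3 CD8αβ clonotypes, a ratio of 3.63 (adjusted Fisher's exact p = 0.0190). Reads in the CD8αα library were spread over clonotypes of 12, 10, 7, 3, 2, 1 and 1 reads, and the family passed without the largest as well (adjusted exact p = 0.0341).

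The remaining 3 called families rested on 1 clonotype each. IGHV14 had 33 reads (6.50%) in the CD8αα library and 4 (1.95%) in the CD8αβ library (adjusted Fisher's exact p = 0.0329), and 75.8% of the former came from the IGHV14-3 clonotype of 25 reads printed above. IGHV10 had 26 reads (5.12%) against 1 (adjusted exact p = 0.00671), and 69.2% of the former came from the IGHV10-1 clonotype of 18 reads. IGHV8 had 22 reads (4.33%) against 19 (9.27%), with adjusted exact p = 0.0315, and 10 of the 19 belonged to the IGHV8-8 clonotype found in both libraries. Without the largest clonotype of the family in each library, the adjusted p was 0.172 for IGHV14, 0.172 for IGHV10 and 0.119 for IGHV8. With the largest heavy chain clonotype of each library left out, among them that IGHV14-3 clonotype, the IGHV14 difference turned from 4.54 to -0.39 percentage points, CD8αα minus CD8αβ.

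IGHV3, IGHV6 and IGHV9 held between 4.33% and 6.83% of the reads in both libraries and did not pass by reads. Their differences were 1.62, -0.84 and -2.50 percentage points, CD8αα minus CD8αβ, with adjusted Fisher's exact p of 0.599, 0.806 and 0.259. In the CD8αβ library 71.4% of the IGHV9 reads came from 1 clonotype, and without the largest of each library the difference turned to 0.94 percentage points. IGHV4 and IGHV11 were rare, with 7 and 0 reads in the CD8αα library and 2 each in the CD8αβ library.

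**Figure D2:**
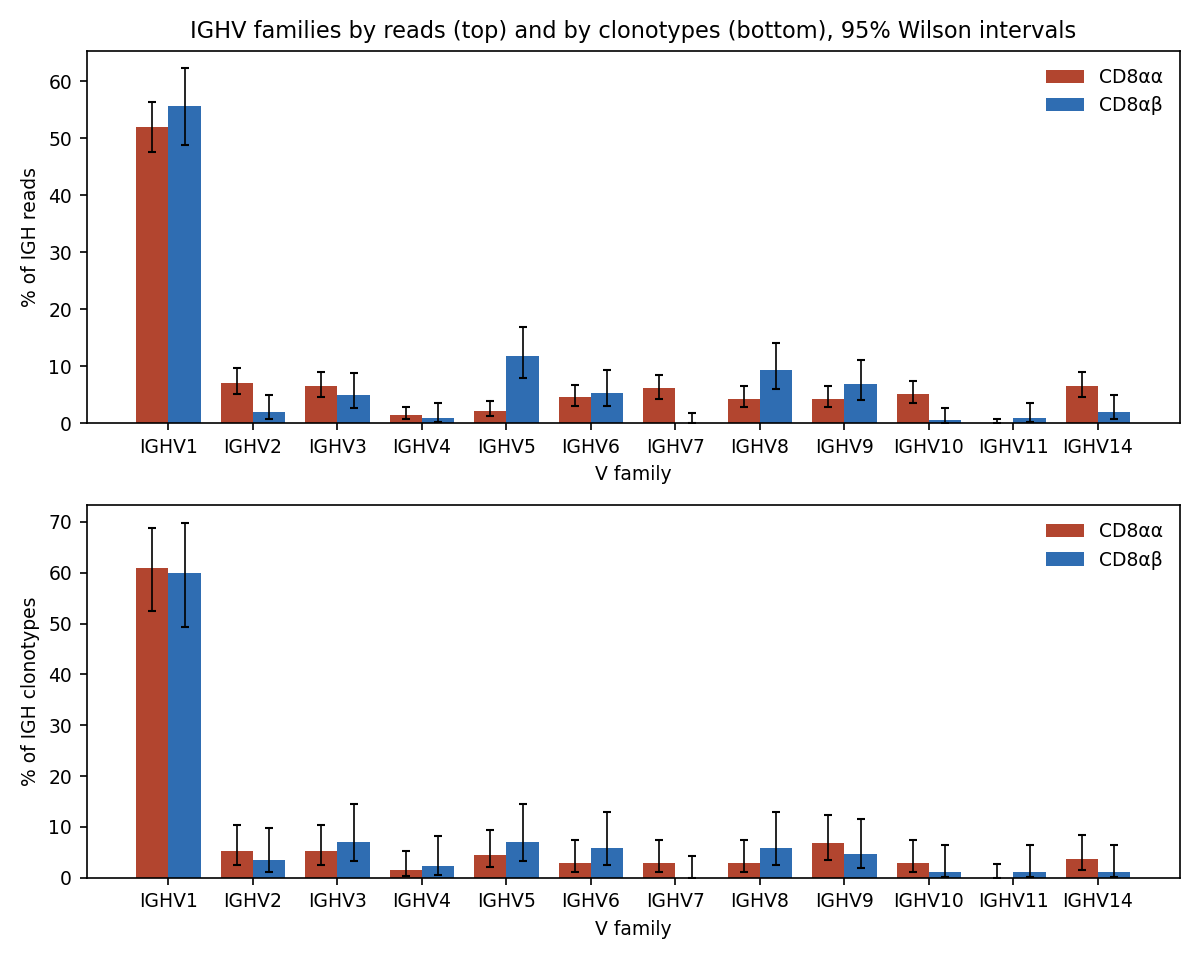
Share of IGH reads (top, %) and of IGH clonotypes (bottom, %) for each V family, in the CD8αα and CD8αβ libraries, with 95% Wilson intervals as bars. IGHV1 stands above 50% in all 4 columns, and the families that separate by reads, such as IGHV5 at 2.17% and 11.7%, have overlapping intervals by clonotypes.

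Single V genes were used thinly. The CD8αα library used 58 IGHV genes and the CD8αβ library 45, of 113 functional V genes annotated in the locus, and 36 genes were seen in both, which is 62.1% of the first set and 80.0% of the second. The highest share of any gene was 5.71% of reads in the CD8αα library and 7.80% in the CD8αβ library. The 22 genes listed in the CD8αα library alone held 167 reads, and 13 of them had a single clonotype. The 9 listed in the CD8αβ library alone held 39 reads, and 5 of them had a single clonotype. By clonotypes 0 of the 67 IGHV genes passed Fisher's exact test, at an adjusted p or at an unadjusted p under 0.05, and the percentage called over the 259 V genes of all chains was 0. By reads 11 of 67 (16.4%) passed, beside 23.2% of the 259, with 5 higher in the CD8αα library and 6 higher in the CD8αβ library.

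IGHV5-9 (Ighv5-9, ENSMUSG00000095285.2, chromosome 12, 113661769 to 113662293, minus strand) had the lowest adjusted p of the IGHV genes. It was listed at 0 of 508 reads in the CD8αα library, where the Wilson interval reaches 0.751%. In the CD8αβ library it held 16 of 205 reads (7.80%, 4.86 to 12.3), in clonotypes of 9, 6 and 1 reads. Its share there was 13.2-fold higher when the floor of 3 reads was set for the CD8αα library (adjusted Fisher's exact p = 2.45e-08). It passed without the largest clonotype too (adjusted exact p = 0.000970). Its 3 clonotypes had 3 different CDR3s and 2 J genes. IGHV1-82, at the far end of the locus, had 5 reads (0.984%) in 1 CD8αα clonotype and 13 (6.34%) in CD8αβ clonotypes of 7, 3, 2 and 1 reads (adjusted exact p = 0.00118), and it also passed without the largest (adjusted p = 0.00356).

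IGHV14-3 (29 and 0 reads), IGHV1-78 (26 and 0), IGHV7-3 (23 and 0) and IGHV10-1 (23 and 1) were higher in the CD8αα library, with adjusted Fisher's exact p of 0.000689, 0.00163, 0.00418 and 0.0252. Against the floor of 3 reads the shares of the first 3 were 3.90, 3.50 and 3.09-fold higher. IGHV1-78 was spread over 5 clonotypes of 12, 9, 3, 1 and 1 reads, and IGHV7-3 over clonotypes of 16 and 7. None of these 4 passed once the largest clonotype of the gene was left out, where the adjusted p was 0.555, 0.0579, 0.273 and 0.559. IGHV8-8 had 10 reads (1.97%) and 15 reads (7.32%), and its call (adjusted exact p = 0.00694) was likewise lost (0.408). The other 4 called genes were IGHV1-39 (20 and 0 reads), IGHV1-74 (1 and 5), IGHV1-5 (0 and 7) and IGHV1-66 (0 and 7), each under 4% of the reads of its library.

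Other genes with at least 4% of the reads or clonotypes of a library were found in both. IGHV1-53 held 29 reads in 7 CD8αα clonotypes and 16 reads in 6 CD8αβ clonotypes. IGHV1-26 held 22 reads in 9 clonotypes and 7 reads in 3, IGHV3-6 held 18 and 9 reads in 5 clonotypes each, IGHV1-52 held 17 reads in 8 clonotypes and 2 reads in 2, and IGHV9-3 held 17 reads in 6 clonotypes and 10 reads in 1. None of the 5 passed by reads, with adjusted Fisher's exact p between 0.279 and 0.897. The 5 genes taken from the literature had at most 9 reads in a library or were unlisted. IGHV11-2, common in B-1a cells that bind phosphatidylcholine, had 2 reads in 1 CD8αβ clonotype and none in the CD8αα library. IGHV12-3, the other gene known for that specificity, and IGHV5-2, which fetal B cells favour, were listed in neither library. IGHV1-72, known from the response of C57BL/6 mice to nitrophenyl haptens, had 5 and 3 reads, and IGHV6-6 had 9 and 5.

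All 67 genes matched GENCODE symbols and lay between 158 and 2570 kb from Ighj1. Counted by clonotypes, the median distance was 1359 kb in both libraries, which is the position of IGHV1-26. The distal families IGHV1 and IGHV8 took 63.9% of CD8αα clonotypes (55.5 to 71.6) and 65.9% of CD8αβ clonotypes (55.3 to 75.1), the D-proximal families IGHV2 and IGHV5 took 9.77% and 10.6%, and the rest took 26.3% and 23.5%. Weighted by reads, the families in between held 34.4% in the CD8αα library (30.4 to 38.7) against 21.5% in the CD8αβ library (16.4 to 27.6). The median distances by reads were 1359 and 1690 kb. The well-read IGHV14-3, IGHV7-3 and IGHV10-1 clonotypes of the CD8αα library lie in that middle stretch, at 630, 723 and 1049 kb. No test was run on distances, since clonotypes of 1 library are not replicates.

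**Figure D3:**
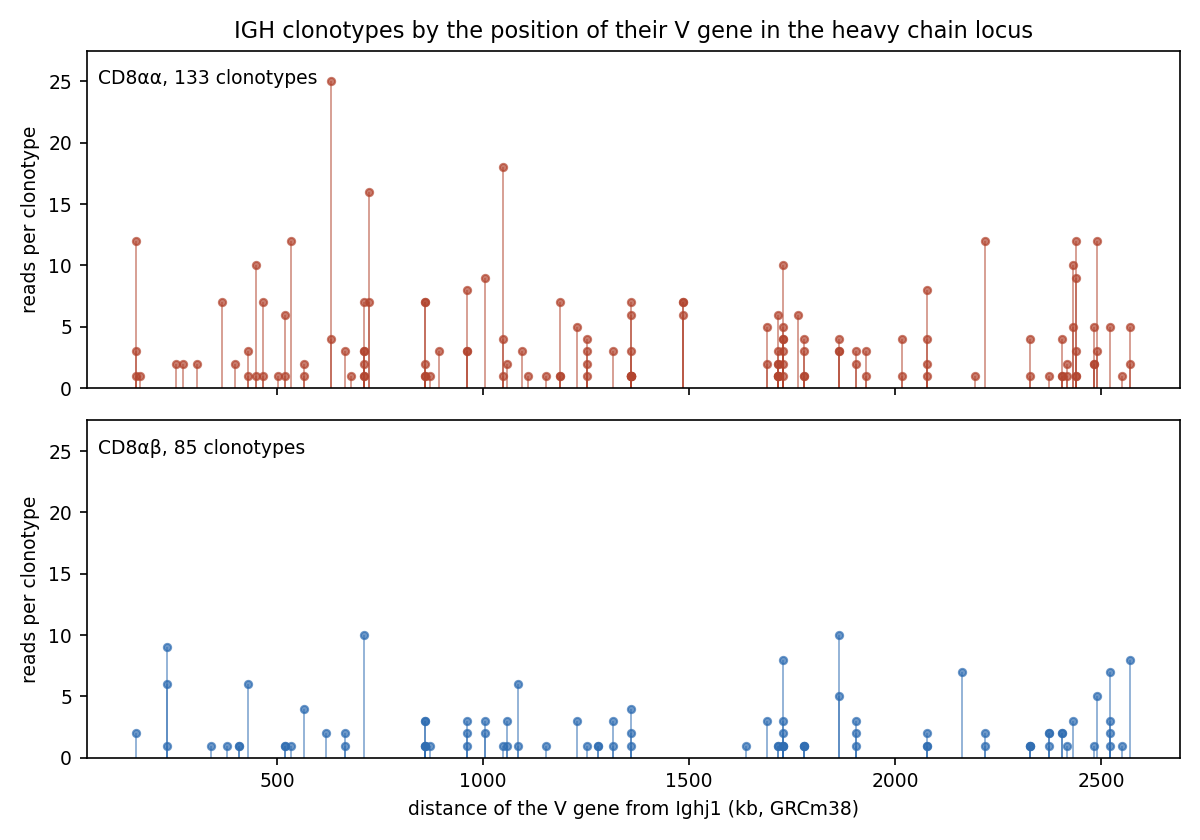
Each point is 1 IGH clonotype, placed by the distance of its V gene from Ighj1 (kb, GRCm38) and by its reads, with the CD8αα library above and the CD8αβ library below on the same scale. Clonotypes of both libraries span 158 to 2570 kb, and the 3 tallest CD8αα points (25, 18 and 16 reads) lie between 630 and 1049 kb.

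IGHJ2 was the most used J gene in both libraries. It held 44.7% of reads (40.4 to 49.0) and 39.8% of clonotypes in the CD8αα library, and 37.1% of reads (30.8 to 43.9) and 37.6% of clonotypes in the CD8αβ library. IGHJ4, which brings the longest J end to the CDR3, held 22.4% and 30.7% of reads, a difference of -8.29 percentage points, CD8αα minus CD8αβ (adjusted Fisher's exact p = 0.0383). It was the single J gene of 4 to pass by reads, beside 58.3% of the 72 J genes of all chains, and it did not pass with clonotypes of 1 read left out (adjusted exact p = 0.120) or without its largest clonotype in each library (0.104). By clonotypes IGHJ4 held 21.1% (14.99 to 28.7) and 29.4% (20.8 to 39.8), and none of the 4 passed at an adjusted or an unadjusted p under 0.05, where the lowest adjusted p was 0.811. Over all chains 1.39% of J genes passed by clonotypes. IGHJ3 held 17.9% and 15.6% of reads and IGHJ1 14.96% and 16.6%.

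**Figure D4:**
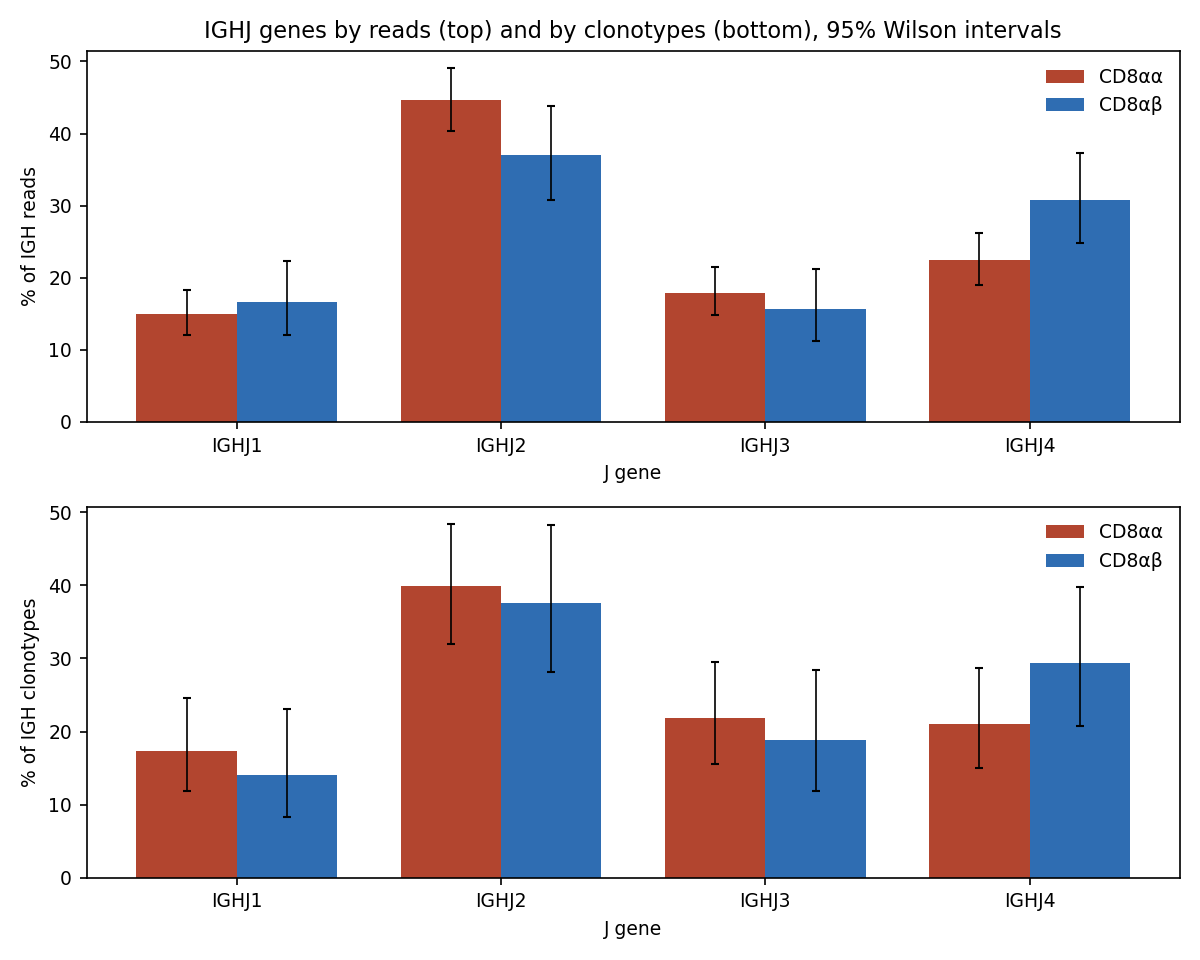
Share of IGH reads (top, %) and of IGH clonotypes (bottom, %) for the 4 J genes in the CD8αα and CD8αβ libraries, with 95% Wilson intervals as bars. IGHJ2 is the tallest in every pair, and IGHJ4 is 22.4% against 30.7% by reads.

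V genes and J genes were joined in 96 different pairs in the CD8αα library and 69 in the CD8αβ library, of which 26 occurred in both. IGHV1-26 with IGHJ2 had the most CD8αα clonotypes, 5 with 11 reads, beside 3 with 7 reads in the CD8αβ library. IGHV1-53 with IGHJ2 had 4 clonotypes in each library, with 22 and 12 reads. Within IGHV1, IGHJ2 joined 40.7% of CD8αα clonotypes and 39.2% of CD8αβ clonotypes, while IGHJ4 joined 18.5% and 33.3%, or 15 of 81 and 17 of 51. These splits within a family were not tested.

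The 2 libraries had 2 heavy chain clonotypes in common, 1.504% of the CD8αα and 2.35% of the CD8αβ clonotypes. Both also carried the same constant gene in the 2 libraries. The capitals again mark the bases between the V part and the J part.
IGHV8-8-IGHJ4 with IGHA: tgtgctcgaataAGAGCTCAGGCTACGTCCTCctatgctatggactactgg
IGHV1-53-IGHJ2 with IGHG1: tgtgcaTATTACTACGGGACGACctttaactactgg
The former had 4 reads in the CD8αα library and 10 in the CD8αβ library, and the latter 10 and 2. The IGHV1-53 clonotype also differed from germline IGHJ2 at 1 base of its J part in both libraries. The count stayed at 2 when clonotypes were matched by amino acid CDR3 with V and J or by nucleotide CDR3 alone. Among the other chains the κ light chain had 28 clonotypes in common (20.3% of the CD8αα and 31.8% of the CD8αβ clonotypes) and the TCR β-chain had 3 (0.890% and 0.328%). The λ light chain had 4 in common and the TCR α-chain 0. Light chains have no D gene and a shorter joint, and whether this bears on the counts was not tested.

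The germline 3′ ends of the V genes in these 2 clonotypes are shown for comparison, with the part that belongs to the CDR3 in capitals (GENCODE transcripts, minus strand of chromosome 12, IGHV1-53 at 115158403 to 115158835 and IGHV8-8 at 115294062 to 115294504).
IGHV1-53: gactctgcggtctattatTGTGCAAGA
IGHV8-8: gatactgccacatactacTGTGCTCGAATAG
The V part of each CDR3, 6 and 12 bases long, equals the germline end over its length.

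CDR3 lengths had close means in the 2 libraries. The mean was 13.35 ± 2.97 aa (SD over 133 clonotypes) in the CD8αα library and 13.56 ± 2.38 aa (SD over 85) in the CD8αβ library, with ranges of 6 to 20 and 8 to 19 aa. Of the 15 lengths, 0 differed in their share of clonotypes (lowest adjusted Fisher's exact p = 0.841, and none at an unadjusted p under 0.05), and 0 of the 59 lengths of all chains did. The order of the mean lengths by J gene was the same in both libraries, with IGHJ1 first, then IGHJ4, IGHJ3 and IGHJ2. Clonotypes with IGHJ1 averaged 14.87 ± 2.46 and 14.83 ± 1.80 aa (n = 23 and 12), those with IGHJ2 12.72 ± 2.96 and 12.84 ± 2.19 aa (n = 53 and 32), those with IGHJ3 13.14 ± 2.85 and 13.31 ± 2.36 aa (n = 29 and 16), and those with IGHJ4 13.50 ± 3.17 and 14.04 ± 2.62 aa (n = 28 and 25). Neighbours in this order differed by less than their SDs, and no test was run on them.

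Weighted by reads, the mean length was 13.03 aa in the CD8αα library and 14.01 aa in the CD8αβ library. CDR3s of 7 aa or fewer made up 7 CD8αα clonotypes with 47 reads (9.25% of reads) and 0 of 85 CD8αβ clonotypes, for which the 95% Wilson interval reaches 4.32%. None of the 7 had a D gene assigned. The limit of 7 aa was chosen after the values had been seen. The 3 with the most reads are shown, with the bases between the V part and the J part in capitals.
IGHV14-3-IGHJ2 with 25 reads: tgtgctagaGGGgactactgg
IGHV2-2-IGHJ4 with 12 reads: tgtgccaAAatggactactgg
IGHV14-3-IGHJ2 with 4 reads: tgtgctagaGGCgactactgg
The first and the last have the same V part and J part, and both carry IGHM. The IGHV2-2 sequence was listed a second time under IGHV2-5 with 2 reads, so the 7 clonotypes held 6 different CDR3s.

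**Figure D5:**
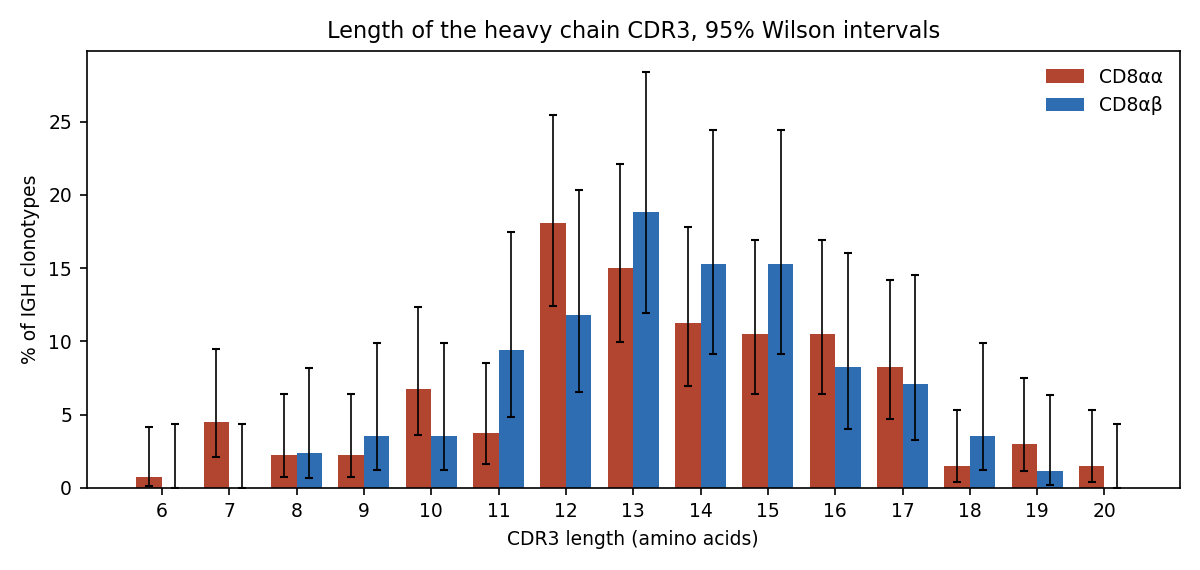
Share of IGH clonotypes (%) at each CDR3 length (amino acids) in the CD8αα and CD8αβ libraries, with 95% Wilson intervals as bars. Both libraries are centred at 12 to 15 aa, and lengths 6 and 7 are filled by CD8αα clonotypes alone.

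Bases that differ from the germline J gene inside the CDR3 were found in both libraries. Such a mismatch was present in 24 of 133 CD8αα clonotypes (18.05%) and 16 of 85 CD8αβ clonotypes (18.8%). Among CD8αα clonotypes with IGHM or IGHD it was present in 5 of 69 (7.25%, 3.13 to 15.9), and among those with a switched constant gene in 17 of 57 (29.8%, 19.5 to 42.7). In the CD8αβ library the same counts were 2 of 31 (6.45%, 1.79 to 20.7) and 13 of 44 (29.5%, 18.2 to 44.2). A further 7 and 10 clonotypes had no constant gene listed. With clonotypes of 1 read left out the shares were 5.26% and 31.9% in the CD8αα library, and 0 of 9 and 21.9% in the CD8αβ library. With each nucleotide CDR3 counted once they were 6.06% and 28.8%, and 6.45% and 29.5%. This split was chosen after the values had been seen and was not tested.

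Clonotypes with IGHA and with IGHG both carried such mismatches, in 8 of 34 and 9 of 23 CD8αα clonotypes and in 8 of 30 and 5 of 13 CD8αβ clonotypes. The 2 IGHA clonotypes with more than 1 mismatch and more than 1 read are shown beside the CD8αβ clonotype with a mismatch and the most reads, with the mismatched bases in capitals and positions counted from 1 at the 5′ end of the J gene.
IGHV1-75-IGHJ4 with IGHA, CD8αα, 4 reads: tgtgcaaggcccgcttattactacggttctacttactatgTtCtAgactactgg
IGHV1-52-IGHJ4 with IGHA, CD8αα, 6 reads: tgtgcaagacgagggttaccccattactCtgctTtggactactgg
IGHV1-82-IGHJ4 with IGHA, CD8αβ, 7 reads: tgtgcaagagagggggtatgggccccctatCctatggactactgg
They carried C10T, A12C and G14A, then A7C and A12T, then G9C. The lowest base quality over each of these CDR3s was 37. Mismatches within the short V part of the CDR3 were found in 7 CD8αα and 8 CD8αβ clonotypes. Per base they were 0.599% for V against 1.42% for J in the CD8αα library. In the CD8αβ library they were closer, at 1.07% and 1.29%. The V gene outside the CDR3 is not part of the listed sequences.

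Among the constant genes read with these V genes, IGHA held 31.1% of heavy chain reads in the CD8αα library and 47.8% in the CD8αβ library, and IGHM held 38.6% and 17.6%. Of the 31 IGHM reads of IGHV14 in the CD8αα library, 25 were the largest clonotype. IGHV5 had 4 IGHM clonotypes and no IGHA clonotype in the CD8αα library, and no IGHM clonotype and 4 IGHA clonotypes in the CD8αβ library, with 7 IGHM reads in the former and 14 IGHA reads in the latter. IGHV6 was read mostly with IGHA in both, in 3 of 4 and 4 of 5 clonotypes. These counts are small and were not tested.

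Features of the lists limit single V genes more than families. In 23 CD8αα clonotypes (17.3%) and 9 CD8αβ clonotypes (10.6%) the best V hit was tied with another V gene, always of the same family, and 21 and 9 of these were IGHV1. In the CD8αα library 9 nucleotide CDR3s were listed under 2 V genes each, so that its 133 clonotypes held 124 different CDR3s, whereas no CD8αβ CDR3 was repeated. The 2 V genes belonged to 1 family in all 9, the constant gene was shared in 8, and in 8 the second entry had 1 or 2 reads. IGHV1-52 and IGHV1-12 were each the lesser entry in 2 of them.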

How the data were processed

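PolyA RNA of hepatic CD8αα and CD8αβ T cells was sequenced in bulk from TG mice, with 1 library each. Clonotypes were built by the authors in MiXCR 3.0.12, who deposited a count of reads for each, without normalization, and the fraction of all listed reads that it makes up. The labels name the build mm10. The MiXCR settings and reference are not given in the sources used here.

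Clonotypes whose first V and J hits were IGH genes were taken from the deposited counts. Shares are of heavy chain reads or clonotypes, with 95% Wilson intervals and a floor of 3 reads for each library. Fisher's exact tests were two-sided and adjusted by Benjamini-Hochberg over the features of all chains, with a threshold of 0.05. They were also run on simulated data in which reads were drawn independently. Those simulations cannot give the error rate for reads that come in clonotypes. The features named were the 4 IGHJ genes, families with at least 5% and genes with at least 4% of reads or clonotypes in either library, the 5 largest clonotypes of each, shared clonotypes and 5 genes known from the literature (IGHV11-2, IGHV12-3, IGHV5-2, IGHV1-72 and IGHV6-6). The short CDR3s, the J mismatches, the V genes called below 4% and those described as repeats were chosen after their values were seen. Members and lists were chosen with earlier results of these data known. MiXCR gives V and J references with a flank beyond the gene, and mismatches there were not counted. Positions are from GENCODE M21 (GRCm38). Tests ran in scipy 1.17.1 under Python 3.11.15, with tables in pandas 2.3.3, arrays in numpy 2.4.6 and plots in matplotlib 3.10.9.

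Alternatives were a minimum of 2 reads, leaving out the largest heavy chain clonotype, shared clonotypes or tied V hits, splitting ties, requiring a constant gene of the same chain, other definitions of a clonotype and another denominator. Leaving out the largest clonotype of a family or gene and joining repeated CDR3s were added after seeing the data.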

Additional observations from a re-analysis of the deposited data

How the results depend on the processing

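No paired analysis was possible because each cell type had 1 library, and for the same reason no replicate could be left out. The 6 V families called by reads became 4 to 6 under the 7 alternatives, and the 11 V genes became 9 to 12. By clonotypes, 0 families, genes, J genes and CDR3 lengths were called under every alternative run. The 1 J gene called by reads became 0 with at least 2 reads, without the largest heavy chain clonotypes, without shared clonotypes and with a constant gene of the same chain. The difference in the heavy chain share of reads shrank to 0.93 percentage points among clonotypes of at least 2 reads (exact p = 0.165), and the cause of these losses was not tested.

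Some differences, CD8αα minus CD8αβ in percentage points, changed sign, and none of the changed values passed the test. By reads, IGHV14, called in the report, became -0.39 without the largest heavy chain clonotypes, and without their own largest clonotypes IGHV9 became 0.94 and IGHV9-3 1.996. With at least 2 reads, IGHV1-26 and IGHV1-72 became -0.27 and 0.86 by reads and -1.47 and 1.14 by clonotypes, and IGHV1, IGHV3, IGHJ1 and IGHJ2 became -0.58, 0.80, -3.60 and -1.52 by clonotypes. Also by clonotypes, IGHV1 became -0.72 and -1.13 without tied V hits and with repeated CDR3s joined, IGHV8-8 became 1.08, 0.32, 0.10 and 0.066 without the largest clonotypes, without shared clonotypes, without ties and with CDR3s joined, IGHV1-53 became 0.60 without ties, and IGHJ2 became -1.65 with a constant gene of the same chain. Of the alternative values for single families, V genes and J genes, 404 kept direction and side of the threshold, 20 kept direction and lost the call, and 19 changed sign. With 205 heavy chain reads in the CD8αβ library, a count of 0 there still allows a share of up to 1.46% by the floor of 3 reads.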

Other observations

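D genes, which form the middle of the heavy chain CDR3, were assigned to most clonotypes. The IGHD2 family held 39.1% of CD8αα clonotypes (95% Wilson interval 31.2 to 47.6) and 42.4% of CD8αβ clonotypes (32.4 to 53.0), and IGHD1 held 29.3% (22.3 to 37.6) and 21.2% (13.8 to 31.0). IGHD3 held 6 CD8αα clonotypes (4.51%, 2.08 to 9.49) and 13 CD8αβ clonotypes (15.3%, 9.16 to 24.4). The best D hit was tied with another D gene in 29 and 20 clonotypes. No test was run on D genes, and these values are a description of 2 libraries.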
